A study of Mus musculus with 9 samples.

Results

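Erythroid globin and haem synthesis genes were followed here, 9 of the 55322 genes in the expression table of the study. They were chosen by gene name and were the adult globin genes *Hba-a1*, *Hba-a2*, *Hbb-bs* and *Hbb-bt*, the haem synthesis gene *Alas2*, the transcription factor gene *Klf1*, the erythropoietin receptor gene *Epor*, and the carbonic anhydrase genes *Car1* and *Car2*. RNA was sequenced from 9 libraries, 3 per group. CD11b+ B cells and CD11b- B cells came from the bone marrow (BM) of wild-type C57BL/6 mice 48 h after LPS (5 mg/kg), which belongs to the outer membrane of Gram-negative bacteria, was injected intraperitoneally. Peritoneal macrophages (PMs, CD11b+F4/80+) came from the peritoneal cavity of untreated wild-type mice, so tissue, cell type and treatment cannot be told apart in any comparison with PMs. Before the B cells were sorted, BM cells carrying CD3, CD4, CD8, Gr-1, NK1.1 or TER119 were removed with magnetic beads. TER119 is a surface antigen of maturing erythroid cells. The study plots FPKM of these libraries with the SD, the error it uses for biological replicates, but the sources used here do not say whether each library came from a mouse of its own or from pooled mice, so p-values measure the spread between libraries. The comparison of CD11b+ with CD11b- B cells asks what distinguishes B cells that carry the myeloid marker CD11b, and PMs serve as a myeloid reference.

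Haemoglobin is made of α chains (from *Hba-a1* and *Hba-a2* in the adult mouse) and β chains (*Hbb-bs* and *Hbb-bt* in C57BL/6), each holding a haem group. In erythroid cells *Alas2* encodes the enzyme of the first step of haem synthesis, and erythropoietin acts through EPOR on erythroid progenitors. KLF1 binds CACCC motifs and GATA1 binds GATA motifs in many erythroid genes. *Car1* and *Car2* encode carbonic anhydrases that are abundant in red cells, and *Car2* is also made in other cell types, including osteoclasts. Globin RNA is among the most abundant RNAs of maturing erythroid cells, which share the BM with B cells.

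The sequences before the start of the globin genes and of *Epor* are shown because the globin genes had similar profiles over the libraries and *Epor* had another one. They are the 250 bases 5′ of the RefSeq start on GRCm38.p6, on the strand of the gene, and capitals mark matches on either strand to a GATA motif (AGATAA or AGATAG or TGATAA or TGATAG) or to CACCC or TATAA or CCAAT. Matches that overlap were each counted.
*Hba-a1* (chr11:32283422-32283671, + strand): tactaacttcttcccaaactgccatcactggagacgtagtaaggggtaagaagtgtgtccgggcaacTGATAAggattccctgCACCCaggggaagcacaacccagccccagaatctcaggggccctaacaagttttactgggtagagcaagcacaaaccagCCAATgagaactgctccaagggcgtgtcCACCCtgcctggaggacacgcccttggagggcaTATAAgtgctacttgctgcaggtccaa
*Hbb-bs* (chr7:103827929-103828178, - strand): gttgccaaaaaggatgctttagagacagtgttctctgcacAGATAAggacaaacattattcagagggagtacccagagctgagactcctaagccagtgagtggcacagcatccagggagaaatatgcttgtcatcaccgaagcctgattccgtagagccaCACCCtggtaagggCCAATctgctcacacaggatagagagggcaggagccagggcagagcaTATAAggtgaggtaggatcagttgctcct
*Hbb-bt* (chr7:103813924-103814173, - strand): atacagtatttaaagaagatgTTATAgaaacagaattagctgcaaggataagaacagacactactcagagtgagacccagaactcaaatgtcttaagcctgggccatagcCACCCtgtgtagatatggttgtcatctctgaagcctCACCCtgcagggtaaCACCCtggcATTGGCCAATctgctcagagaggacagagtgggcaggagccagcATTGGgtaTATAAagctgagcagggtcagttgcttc
*Epor* (chr9:21963577-21963826, - strand): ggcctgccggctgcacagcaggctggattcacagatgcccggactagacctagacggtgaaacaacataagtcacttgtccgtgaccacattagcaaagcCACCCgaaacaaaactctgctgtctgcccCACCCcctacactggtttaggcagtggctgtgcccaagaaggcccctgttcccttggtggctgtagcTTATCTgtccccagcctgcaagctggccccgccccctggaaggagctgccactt

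The window of *Hba-a2* was 98.8% identical to that of *Hba-a1*, and those of *Hbb-bs* and *Hbb-bt* were 74.0% identical. The windows of all 4 globin genes held CACCC as well as TATAA and CCAAT. Over the 32817 promoter windows of the same length in the RefSeq table, 52.0% held CACCC, while TATAA was in 22.8% and CCAAT in 33.8%. A GATA motif was found in 3 of the 4 globin windows, all except that of *Hbb-bt*, and in 26.6% of all windows. The window of *Epor* held CACCC and a GATA motif but neither TATAA nor CCAAT. *Alas2* and *Klf1* also had a GATA motif and CACCC in their windows, and *Car1* and *Car2* were not in the promoter table. These are matches of letters in a window, not binding sites.

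Between 18014658 and 35251215 reads were counted on genes per library, with fewer in PMs (at most 29208721) than in CD11b- B cells (at least 32056102). FPKM values, which scale fragments by exon length and by library size, are used for levels, since they can be compared between genes, and differences are log2 fold changes of FPKM + 1, which understate the change of genes with low FPKM. The labelled cell types were checked against their markers. All 7 B cell markers reported here, including *Ms4a1*, *Cd79a* and *Pax5*, passed the limma test (adjusted p under 0.05) as higher in either B cell group than in PMs, and all 8 macrophage markers, including *Adgre1* and *Csf1r*, as lower. Some libraries stood apart from their group. *Rag1*, *Vpreb1*, *Igll1* and *Dntt*, genes of B cell precursors that were chosen after their values were seen, had a summed FPKM of 125 in CD11b- replicate 3, against 0.166 and 0.893 in the other two CD11b- libraries. Their sum was 30.2 in CD11b+ replicate 3, against 1.36 and 2.83 in the other two. Values without CD11b- replicate 3 are given beside the calls of the 9 genes that it changed.

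The adult globin genes were read in every B cell library and hardly at all in PMs. *Hba-a1* (ENSMUSG00000069919, chromosome 11, 32283511 to 32284465 on GRCm38) reached 19.5, 21.2 and 12.2 (FPKM) in CD11b+ replicates 1, 2 and 3 and 12.2, 4.48 and 0.538 in CD11b- replicates 1, 2 and 3, with no read in any PM library. The groups overlapped, since CD11b- replicate 1 was just above CD11b+ replicate 3, and the CD11b- values were the most scattered. *Hba-a2* (ENSMUSG00000069917, chromosome 11, 32296489 to 32297298) reached 4.08, 4.75 and 6.29 in the CD11b+ libraries (in the order of the replicate numbers, as below), 2.34, 1.72 and 0.281 in the CD11b- libraries, and 0, 0.205 and 0.0743 in the PM libraries. Its 3 groups did not overlap, but the lowest CD11b- value rested on 6 reads and the highest PM value on 4 reads.

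*Hbb-bs* (ENSMUSG00000052305, chromosome 7, 103826534 to 103828096) reached 18.2, 16.2 and 15.1 in the CD11b+ libraries, 8.62, 3.21 and 0.609 in the CD11b- libraries, and 0, 0.0446 and 0.0645 in the PM libraries. *Hbb-bt* (ENSMUSG00000073940, chromosome 7, 103812524 to 103813996) reached 4.50, 5.98 and 5.00 in the CD11b+ libraries, 1.96, 2.85 and 0.532 in the CD11b- libraries, and 0.158, 0 and 0.493 in the PM libraries. For both β globin genes every CD11b+ library was above every CD11b- library, and these were above every PM library. For *Hbb-bt* the lowest CD11b- value rested on 12 reads and the highest PM value on 7 reads. CD11b- replicate 3, the library with the B cell precursor genes, had the lowest value of its group for each of the 4 globin genes.

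**Figure D1:**
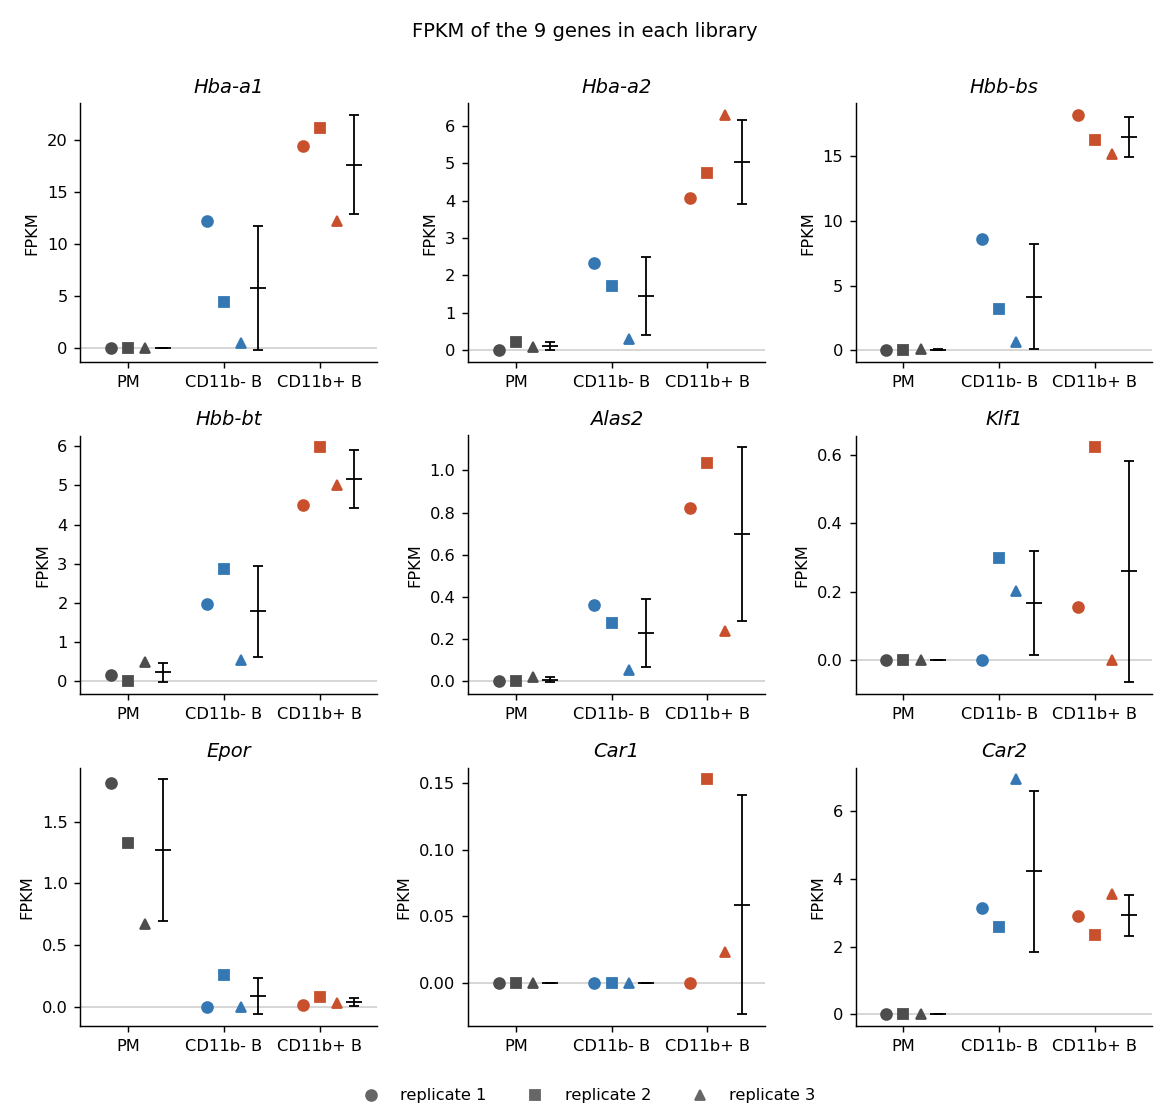
FPKM (y axis, a scale of its own for each gene) of the 9 genes in the 3 PM, 3 CD11b- B cell and 3 CD11b+ B cell libraries. Each symbol is 1 library, its shape gives the replicate, and the black bar gives the mean and SD of the group. The globin genes and *Alas2* have their highest means in CD11b+ B cells, *Epor* in PMs and *Car2* in CD11b- B cells.

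The globin genes of a pair are near copies of each other. Of the 150-base stretches of *Hba-a2* transcripts, 73.1% also occurred in *Hba-a1*, and 57.0% of those of *Hba-a1* in *Hba-a2*. For *Hbb-bs* and *Hbb-bt* the shares were 45.6% and 50.7%. How reads were divided within a pair is therefore uncertain, and the FPKM of the 4 genes were also summed. The sum was 46.2, 48.1 and 38.6 in the CD11b+ libraries (44.3 ± 5.02, mean ± SD, n = 3), 25.1, 12.3 and 1.96 in the CD11b- libraries (13.1 ± 11.6, n = 3), and 0.158, 0.250 and 0.632 in the PM libraries (0.347 ± 0.252, n = 3). In reads, these sums rested on 1047, 969 and 1031 reads in the CD11b+ libraries, on 650, 323 and 47 reads in the CD11b- libraries, and on 2, 5 and 9 reads in the PM libraries. They made up at most 0.00370% of the reads on genes, in CD11b+ replicate 2. In bulk RNA, fewer cells of a type and less RNA per cell cannot be told apart, so these sums do not say how many cells held globin RNA.

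The α and β genes had similar levels in the B cell libraries. The ratio of summed α to summed β FPKM was 1.04, 1.17 and 0.918 in the CD11b+ libraries and 1.37, 1.02 and 0.717 in the CD11b- libraries. The lowest ratio was that of CD11b- replicate 3, which rested on 47 globin reads. *Hbb-bs* was higher than *Hbb-bt* in each B cell library. In CD11b- replicates 2 and 3 this rested on 86 against 70 and on 15 against 12 reads, whose division within the pair is uncertain. The ratio of *Hbb-bs* to *Hbb-bt* FPKM was 4.04, 2.71 and 3.03 in the CD11b+ libraries and 4.40, 1.12 and 1.14 in the CD11b- libraries, so that the groups overlapped.

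Between CD11b+ and CD11b- B cells, none of the 9 genes passed the test. Of the 9, 8 could be tested, and *Car1* was left out because its mean FPKM was under 0.05. Among all 21778 genes tested, limma (two-sided, Benjamini-Hochberg adjustment) called 15, or 0.0689%, all higher in CD11b+ B cells. The log2 fold change was 2.12 for *Hbb-bs* (standard error 0.55, adjusted p = 0.391 by limma), 1.92 for *Hba-a1* (0.68, 0.587), 1.40 for *Hba-a2* (0.38, 0.422) and 1.24 for *Hbb-bt* (0.35, 0.460). Without CD11b- replicate 3 these became 1.46, 1.09, 0.99 and 0.86 in the same order, and without CD11b- replicate 1 those of *Hbb-bs* and *Hba-a1* became 2.75 and 2.64. With the standard errors of these 3 libraries against 3, missing the threshold does not show that the levels were alike. These 4 genes were also the ones with an unadjusted p under 0.05, which 7.68% of all genes tested had. *Hba-a2*, *Hbb-bs* and *Hbb-bt* were above in all CD11b+ libraries without overlap, as were 8.63% of the genes tested. Neither edgeR (lowest adjusted p = 0.478), which called 0.269% of its genes, nor DESeq2 (lowest adjusted p = 0.0952), which called 2.26%, called any of the 7 members that each could test. With both tools the lowest value was that of *Hbb-bs*. The median log2 fold change of the 8 tested members was 0.84, and that of all genes tested was 0.03. The globin genes lay above 0.84, and *Alas2* (0.44), *Klf1* (0.09), *Epor* (-0.05) and *Car2* (-0.33) lay below it.

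The summed globin FPKM of CD11b+ B cells was 3.38-fold that of CD11b- B cells. Its groups did not overlap, and the exact two-sided permutation test gave p = 0.1, the smallest value that 3 libraries against 3 allow. The ratio depended on which CD11b- library was left out. It was 6.23 without CD11b- replicate 1, which had the highest globin level of its group, and 2.37 without CD11b- replicate 3.

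Markers of other cells differed between the same libraries. The 5 erythroid markers reported here (*Slc4a1*, *Rhag*, *Epb42*, *Gata1* and *Tal1*) summed to an FPKM of 0.198 to 0.800 in the CD11b+ libraries, of 0.0461 to 0.174 in the CD11b- libraries and of 0.784 to 1.05 in the PM libraries. These low sums did not overlap between the B cell groups. In CD11b- B cells *Gata1* and *Tal1* were at 0 in every library. In CD11b+ B cells each of the 5 markers had a read in at least 1 library, and *Slc4a1*, which encodes the anion exchanger of the red cell membrane, had an FPKM of 0.237, 0.0937 and 0.603, against 0.110, 0.0117 and 0 in the CD11b- libraries, so that the groups overlapped. The PM sum was mostly that of *Tal1*, with 0.634 to 0.883 in PMs and at most 0.0466 in the CD11b+ libraries. Over CD11b+ replicates 1, 2 and 3 the erythroid marker sum was 0.800, 0.198 and 0.625, and the neutrophil marker sum, described next, was 637, 1534 and 215, which ran in the order of the globin sums while the erythroid sum did not. Over CD11b- replicates 1, 2 and 3 the erythroid marker sum was 0.174, 0.0805 and 0.0461, in the order of the globin sums, and the neutrophil marker sum was 1.94, 2.97 and 1.74, in another order. In CD11b+ replicate 1 *Gata1* gave 0.517 of the erythroid sum, and the globin sums of CD11b+ replicates 1 and 2 were close (46.2 and 48.1). These orders over 3 libraries were not tested. The 9 neutrophil markers summed to 215 to 1534 in the CD11b+ libraries, against 1.74 to 2.97 in the CD11b- libraries and a median of 10.3 in PMs, and *S100a8*, *S100a9* and *Retnlg* of that list passed the limma test as higher in the CD11b+ libraries than in the CD11b- ones. The 7 B cell markers summed to 4023 to 4529 in the CD11b+ and 5231 to 5503 in the CD11b- libraries, the 8 macrophage markers to 145 to 332 and 97.1 to 125, and the 6 monocyte markers to 31.4 to 52.0 and 10.3 to 19.4, each without overlap of the groups. The sums of 6 eosinophil, basophil and mast cell markers (4.58 to 14.7 and 0.263 to 1.99) and of 6 megakaryocyte and platelet markers (4.74 to 6.78 and 2.50 to 4.71) did not overlap either, and those of T and NK cells, of stem and progenitor cells and of erythroblastic island macrophages did. The part of other cells in the globin levels was not tested.

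**Figure D2:**
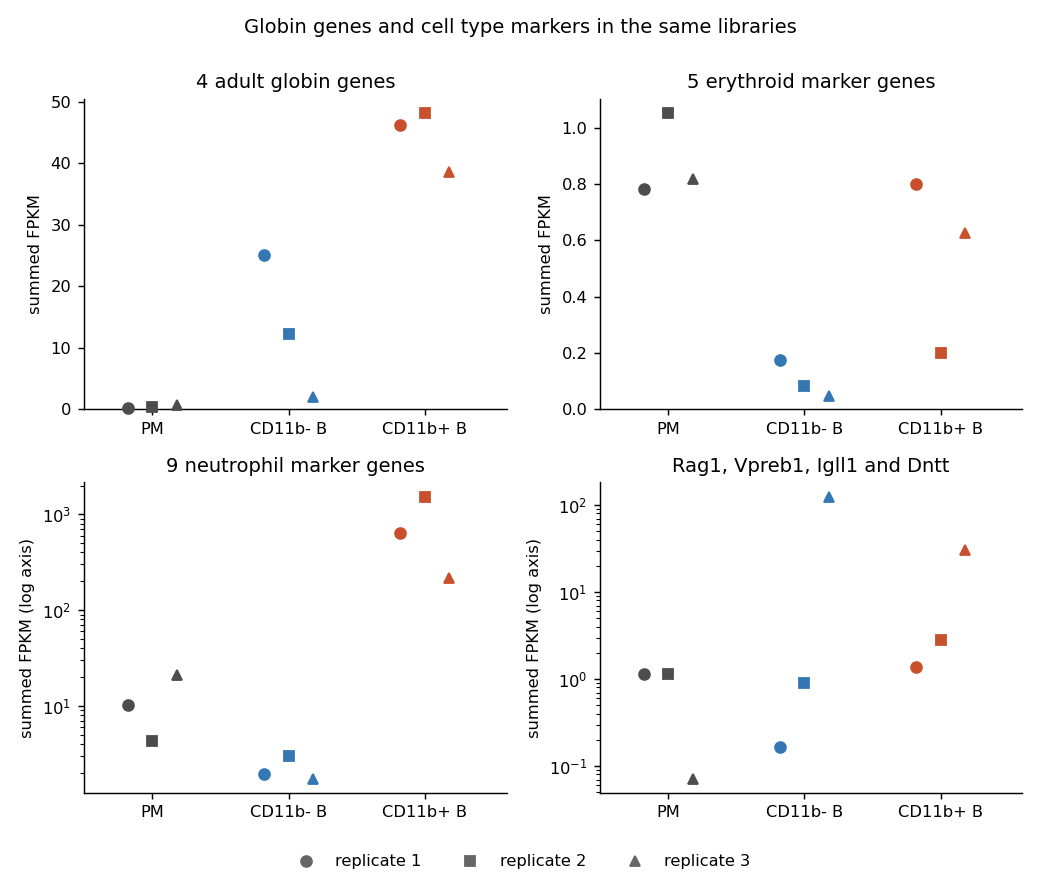
Summed FPKM (y axis) of the 4 adult globin genes, of 5 erythroid and 9 neutrophil marker genes, and of the B cell precursor genes *Rag1*, *Vpreb1*, *Igll1* and *Dntt*, in each library. Symbols stand for single libraries and their shape for the replicate, and the lower panels have log axes. CD11b- replicate 3 has the lowest globin sum of the B cell libraries (1.96) and the highest precursor sum (125).

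Against PMs, the 4 globin genes rose in CD11b+ B cells, and *Hba-a1* and *Hbb-bs* rose in CD11b- B cells. The comparisons with PMs share the 3 PM libraries, and each B cell group enters 2 comparisons, so the 3 comparisons are not independent of each other. In CD11b+ B cells limma called 7 of the 8 members tested, 6 higher and 1 lower, beside 30.3% of the 22102 genes tested, 21.5% higher and 8.78% lower. All CD11b+ libraries lay above all PM libraries for the 6 higher members and below them for the lower one, as for 34.3% and 12.4% of all genes tested. The same 7 members were called by edgeR (36.9% of its genes) and by DESeq2 (39.5%). Here *Hba-a1* had a log2 fold change of 4.18 (adjusted p = 3.39e-05 by limma), *Hbb-bs* of 4.08 (1.68e-05), *Hba-a2* of 2.45 (0.000638) and *Hbb-bt* of 2.35 (0.000926). PMs had no *Hba-a1* read but a few of *Hba-a2*, and reads within the pair cannot be assigned with certainty. The log2 fold changes of *Hba-a1* against PMs depend on that assignment, and no ratio of FPKM is given for *Hba-a1* alone. The summed globin FPKM was 128-fold higher (exact permutation p = 0.1), and 217-fold without PM replicate 3.

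In CD11b- B cells limma called 4 of the 8 members tested, 3 higher and 1 lower, beside 36.7% of 20985 genes, 25.8% higher and 11.0% lower. The log2 fold change was 2.27 ± 0.70 (SE) for *Hba-a1* (adjusted p = 0.0378 by limma) and 1.96 ± 0.59 for *Hbb-bs* (0.0349). Without CD11b- replicate 1 these were 1.54 and 1.33, and without CD11b- replicate 3 they were 3.09 and 2.62. Both calls were lost without any 1 of the PM libraries, without CD11b- replicate 1 or without CD11b- replicate 2, and with no filter or with either other scaling of the FPKM. Their adjusted p spanned 1.14e-05 to 0.118 (*Hba-a1*) and 0.000458 to 0.104 (*Hbb-bs*) over 18 alternatives. *Hba-a2* (1.05 on the log2 scale, adjusted p = 0.0560 by limma) and *Hbb-bt* (1.11, 0.0530) missed the threshold, although their CD11b- libraries lay above all PM libraries. Without CD11b- replicate 3 both passed, with log2 fold changes of 1.47 (adjusted p = 0.00696 by limma) and 1.49 (0.0150). In all, 6 members lay above PMs without overlap and 1 below, as did 36.1% and 15.2% of the genes tested. For *Hba-a2*, *Hbb-bt* and *Alas2* the gap was only a few reads wide. Of the members it could test, edgeR (42.1% of its genes called) called *Hba-a1*, *Hbb-bs* and *Car2*, and DESeq2 (44.3%) also *Epor*. The summed globin FPKM was 37.8-fold higher than in PMs (exact permutation p = 0.1). It was 20.5-fold higher without CD11b- replicate 1 and 64.3-fold higher without PM replicate 3.

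Among the genes called against PMs, 71.0% were higher in CD11b+ B cells and 70.1% in CD11b- B cells. These shares became 53.3% and 52.5% with median-ratio scaling, which set the median log2 fold change of all genes at 0.12 and 0.09 in place of 0.25 and 0.24. Each called member had few or no reads in PMs or, for *Epor*, in B cells, so a scaling could hardly reverse its direction, and none reversed. Under both median-ratio scaling and quantile normalization *Alas2* lost its call in CD11b+ B cells. *Hba-a1* and *Hbb-bs* lost theirs in CD11b- B cells.

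**Figure D3:**
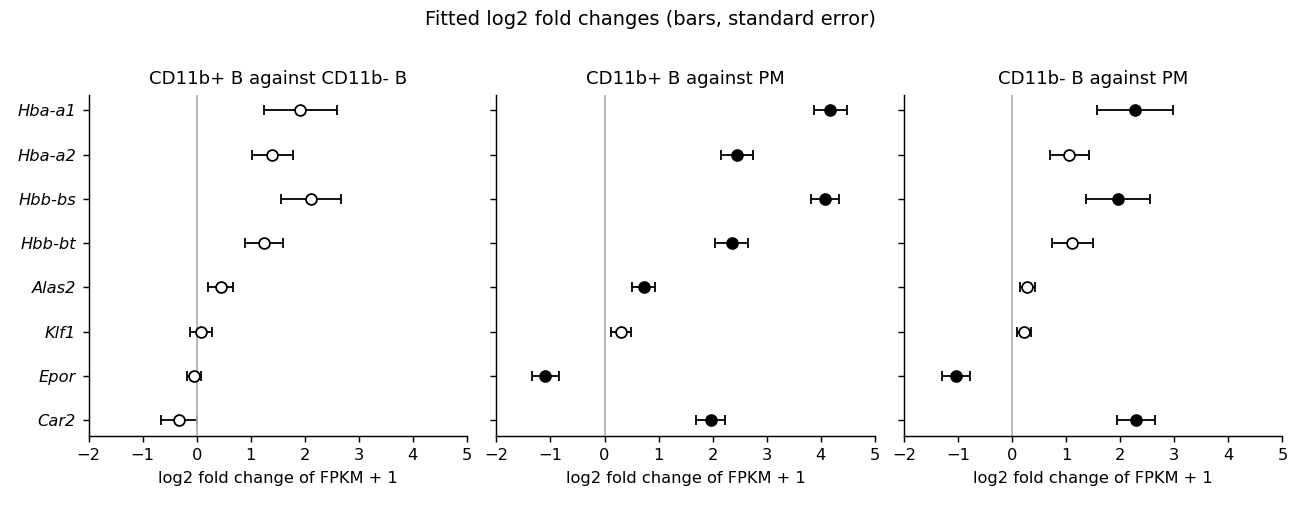
Log2 fold change of FPKM + 1 (x axis) of the 8 tested genes in the 3 comparisons, with the standard error as a bar. Filled symbols passed the limma test at an adjusted p under 0.05 and open symbols did not. No symbol is filled for CD11b+ against CD11b- B cells, 7 are filled for CD11b+ B cells against PMs and 4 for CD11b- B cells against PMs.

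*Alas2* (ENSMUSG00000025270, chromosome X, 150547375 to 150570638) followed the globin genes at a lower level. Its FPKM reached 0.822, 1.03 and 0.236 in the CD11b+ libraries, 0.362, 0.274 and 0.0519 in the CD11b- libraries, and 0, 0 and 0.0206 in the PM libraries. CD11b+ replicate 3 lay among the CD11b- libraries, and all B cell libraries were above all PM libraries. The lowest CD11b- value rested on 4 reads and the highest PM value on 1 read. The log2 fold change of CD11b+ over CD11b- B cells was 0.44 with a standard error of 0.23 (adjusted p = 0.684, limma). Against PMs it was 0.72 in CD11b+ B cells (0.22, 0.0384), a call lost in 9 of 17 alternatives with adjusted p from 0.00198 to 0.118, and 0.28 in CD11b- B cells (0.14, 0.150), which passed without CD11b- replicate 3 (0.39, adjusted p = 0.0420 by limma). *Alas2* overlaps *Apex2* on the other strand, and the sources used here do not say whether reads were counted by strand. *Apex2*, which encodes a DNA repair nuclease, ranged from 1.69 to 2.04 in the CD11b+ libraries and from 1.80 to 3.03 in the CD11b- libraries. In the PM libraries it ranged from 0.556 to 1.40, below all B cell libraries, as did *Alas2*. Whether *Apex2* reads entered the *Alas2* values was not tested.

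The other enzymes of haem synthesis act in all nucleated cells. None of the 7 reported here (*Alas1*, *Alad*, *Uros*, *Urod*, *Cpox*, *Ppox* and *Fech*) differed between CD11b+ and CD11b- B cells by the limma test, with a median log2 fold change of -0.10 against 0.03 for all genes. *Alas1*, which encodes the form of the first enzyme used outside erythroid cells, averaged 8.76 ± 2.93 in the CD11b+, 9.73 ± 2.59 in the CD11b- and 8.13 ± 0.350 in the PM libraries (FPKM ± SD, n = 3). *Alad*, the enzyme of the second step, rose in both B cell groups against PMs, from 9.83 ± 2.09 to 33.0 ± 5.98 in CD11b+ B cells (adjusted p = 0.00112 by limma) and 32.6 ± 4.13 in CD11b- B cells (0.000674). *Urod* and *Ppox*, which act later in the pathway, were called higher as well, so that 3 of the 7 rose in each group, beside 21.5% and 25.8% of all genes tested. The call of *Urod* was lost under all 5 other scalings and count models in both groups, and that of *Ppox* under all 5 in CD11b+ B cells and under 2 of 5 in CD11b- B cells, where it was also lost without any 1 of the CD11b- libraries.

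*Klf1* (ENSMUSG00000054191, chromosome 8, 84901928 to 84905291) was close to the limit of detection. Its FPKM was 0.155, 0.623 and 0 in the CD11b+ libraries, 0, 0.299 and 0.203 in the CD11b- libraries, and 0 in all PM libraries. These values rested on 32, 26 and 0 reads per group, and both B cell groups held a library without a read. The log2 fold change of CD11b+ over CD11b- B cells was 0.09 with a standard error of 0.20 (adjusted p = 0.893, limma), and against PMs it was 0.30 in CD11b+ B cells (adjusted p = 0.260) and 0.21 in CD11b- B cells (adjusted p = 0.243). With 0 reads, the 3 PM libraries together allow an FPKM of up to 0.0290.

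Of 12 other transcription factors of erythroid cells, none passed the test between the B cell groups, where 11 were tested. Against PMs, 3 rose and 4 fell in CD11b+ B cells, and 4 rose and 4 fell in CD11b- B cells (12 and 11 tested), beside 21.5% and 8.78%, and 25.8% and 11.0%, of all genes tested. *Nfe2*, which encodes a subunit of NF-E2, fell from 44.4 ± 5.73 in PMs to 1.13 ± 0.733 in CD11b+ B cells and 0.175 ± 0.203 in CD11b- B cells (adjusted p = 2.02e-05 and 2.80e-06 by limma). *Gfi1b*, a repressor of erythroid and megakaryocytic cells, fell from 6.26 ± 3.32 to 0.212 ± 0.250 and 0.297 ± 0.0976 (adjusted p = 0.00466 and 0.00430 by limma). *Tal1* and *Klf13* were the other genes that fell in both groups. *Bcl11a*, a repressor of embryonic globin genes that is also needed for B cell development, rose from 0.344 ± 0.0662 to 19.4 ± 3.01 and 16.8 ± 2.59. *Myb* rose from 0.139 ± 0.0130 to 6.71 ± 3.60 and 12.2 ± 11.5, and its FPKM was 25.5 in CD11b- replicate 3, against 6.67 and 4.57 in the other two CD11b- libraries. *Gata1* was not among the genes called. Its FPKM was 0.517, 0.0157 and 0.0116 in the CD11b+ libraries and 0, 0 and 0.183 in the PM libraries.

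*Epor* (ENSMUSG00000006235, chromosome 9, 21958897 to 21963506) was the member that was lower in B cells than in PMs. Its FPKM was 1.81, 1.33 and 0.673 in the PM libraries, 0, 0.259 and 0 in the CD11b- libraries, and 0.0171, 0.0768 and 0.0285 in the CD11b+ libraries. All PM libraries lay above all B cell libraries. The PM values rested on 169 reads, the CD11b- values on 18 reads, all in replicate 2, and the CD11b+ values on 7 reads. *Epor* fell by 1.09 on the log2 scale in CD11b+ B cells against PMs (standard error 0.25, adjusted p = 0.0132 by limma) and by 1.04 in CD11b- B cells (0.25, 0.0157). The call for CD11b+ B cells was lost with no filter (adjusted p = 0.0782), without CD11b+ replicate 1 (0.0618) and without CD11b+ replicate 2 (0.0539), while over its 17 alternatives the lowest adjusted p was 6.97e-07. For CD11b- B cells the adjusted p stayed under 0.05 in 13 of 17 alternatives and ran from 0.00288 to 0.0706, with 0.0704 without CD11b- replicate 1 and 0.0604 without CD11b- replicate 3. Between CD11b+ and CD11b- B cells the difference was -0.05 on the log2 scale, with a standard error of 0.12 (adjusted p = 0.892, limma), at levels of a few reads.

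Of 13 genes of erythropoietin signalling, 12 were in the table. None passed the test between the B cell groups. Against PMs, 1 of 10 tested rose and 1 fell in CD11b+ B cells, and 3 of 11 rose and 1 fell in CD11b- B cells, beside 21.5% and 8.78%, and 25.8% and 11.0%, of all genes. *Ptpn6*, which encodes the phosphatase SHP-1, a brake on the receptor that is abundant in blood cells, rose from 155 ± 14.0 in PMs to 602 ± 130 in CD11b+ B cells (adjusted p = 0.000613 by limma) and 826 ± 62.4 in CD11b- B cells (3.76e-05). *Socs3*, a feedback inhibitor of cytokine receptors, fell from 34.8 ± 9.59 to 4.65 ± 1.24 and 3.79 ± 1.14. *Stat5a*, which encodes a transcription factor downstream of the receptor, and *Lyn*, which encodes a kinase also active in B cell receptor signalling, passed the test against PMs in CD11b- B cells and missed it in CD11b+ B cells (adjusted p = 0.131 and 0.102 by limma). Between the B cell groups their log2 fold changes were -0.32 and -0.27 (adjusted p = 0.727 and 0.672 by limma), so the difference itself did not pass. The call of *Stat5a* was lost under all 5 other scalings and count models, and that of *Lyn* under 4 of the 5. *Epo*, which encodes the ligand, had no read in PMs.

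*Car2* (ENSMUSG00000027562, chromosome 3, 14886273 to 14900770) had another profile than the globin genes. Its FPKM was 2.91, 2.33 and 3.54 in the CD11b+ libraries, 3.14, 2.58 and 6.93 in the CD11b- libraries, and 0 in all PM libraries. The B cell groups overlapped, and the highest value was in CD11b- replicate 3, the library with the lowest globin level of the B cell libraries. The log2 fold change between CD11b+ and CD11b- B cells was -0.33 (standard error 0.33, adjusted p = 0.729 by limma), and 0.02 without CD11b- replicate 3. Against PMs *Car2* rose in both groups, with log2 fold changes of 1.96 (adjusted p = 0.00113 by limma) and 2.29 (0.00193), and these calls held in all 18 alternatives. With 3 reads as the limit for PMs, its mean FPKM was at least 159-fold higher in CD11b+ B cells.

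*Car1* (ENSMUSG00000027556, chromosome 3, 14766216 to 14808368) was nearly absent from the counts. It had 5 reads in CD11b+ replicate 2, 1 read in CD11b+ replicate 3 and none in the other libraries. With the filter on mean FPKM it was not tested in any comparison. With no filter *Car1* entered both comparisons of CD11b+ B cells and was not called. Its FPKM was 0.153 in CD11b+ replicate 2 and 0.0227 in CD11b+ replicate 3. The count of 0 allows a mean FPKM of up to 0.0240 in CD11b- B cells and 0.0357 in PMs.

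Of the 14 other carbonic anhydrase genes, 7 were tested between the B cell groups and none was called. Against PMs 8 were tested, and 1 rose and 1 fell in either B cell group, beside the same shares of all genes as for the transcription factors. *Car13*, a cytosolic form, rose from 0.00805 ± 0.0139 to 2.17 ± 0.493 in CD11b+ B cells (adjusted p = 0.00206 by limma) and 1.66 ± 0.936 in CD11b- B cells (0.00892). *Car6*, a secreted form, fell from 17.2 ± 5.15 to 0.0354 ± 0.0377 and 0.0215 ± 0.0240 (adjusted p = 3.99e-05 and 3.35e-05 by limma). *Car6* therefore had the highest level of the family in PMs, in which *Car1* and *Car2* had no read.

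Genes of the red cell membrane and of late erythroid maturation were at low levels or were shared by the groups. Of the 14 membrane and cytoskeleton genes reported here, 4 could be tested between the B cell groups, and none was called. Against PMs none of 6 tested was called in CD11b+ B cells and none of 4 in CD11b- B cells, beside 30.3% and 36.7% of all genes tested. The highest was *Epb41*, which encodes the widely made protein 4.1R, with 3.62 ± 0.305 in the CD11b+, 4.17 ± 0.756 in the CD11b- and 2.31 ± 1.33 in the PM libraries. Of the 13 genes of the cytosol and of maturation, 11 were in the table, and *Ahsp* and *Rhex* were not analysed here. None was called between the B cell groups. Against PMs, none of 8 tested rose and 1 fell in CD11b+ B cells, and 1 of 8 rose and 2 fell in CD11b- B cells. Of all genes tested, 21.5% rose and 8.78% fell in CD11b+ B cells, and 25.8% and 11.0% in CD11b- B cells. *Blvrb*, a haem catabolic reductase, fell from 105 ± 12.7 in PMs to 51.2 ± 3.27 in CD11b+ B cells (adjusted p = 0.00348 by limma) and 55.1 ± 4.41 in CD11b- B cells (0.00346). *Prdx2*, a peroxiredoxin, also fell in CD11b- B cells (adjusted p = 0.0188 by limma), a call lost without any 1 of the CD11b- libraries (adjusted p up to 0.0731). In that comparison *Bpgm*, an enzyme of red cell glycolysis, was called higher, a call lost under all 5 other scalings and count models.

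Embryonic and minor globins were nearly silent. Of the 12 genes listed, 10 were in the table, and their summed FPKM was at most 0.291 in a CD11b+, 0.413 in a CD11b- and 0.546 in a PM library. Only *Ngb*, the globin of nerve cells, could be tested, and it was not called. *Hba-x* and *Hbb-y*, the embryonic ζ and ε forms, had no read in any library.

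Of the 10 genes of iron uptake and mitochondrial iron, none was called between the B cell groups. *Tfrc*, the transferrin receptor through which cells take up iron, rose from 1.44 ± 0.191 in PMs to 11.4 ± 0.672 in CD11b+ B cells (adjusted p = 0.000210 by limma) and 13.3 ± 1.42 in CD11b- B cells (9.44e-05). *Ireb2*, which encodes an iron-sensing regulator of *Tfrc* RNA, rose from 2.67 ± 0.697 to 8.07 ± 1.26 and 7.04 ± 1.61, a call lost under 1 and 3 of the 5 other scalings and count models, and in CD11b- B cells also without CD11b- replicate 1 or 2. *Steap3*, the ferrireductase of the transferrin cycle in erythroid cells, fell from 5.45 ± 1.03 to 0.661 ± 0.224 and 0.312 ± 0.189. In all, 3 of the 10 iron genes rose and 1 fell in CD11b+ B cells, and 4 rose and 1 fell in CD11b- B cells, beside 21.5% and 8.78%, and 25.8% and 11.0%, of all genes tested. The call of *Abcb10*, a mitochondrial transporter that rose in both, was lost under all 5 other scalings and count models.

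Of the 7 genes of haem breakdown and export, *Hmox1*, *Blvra*, *Blvrb* and *Flvcr1* fell in both B cell groups against PMs (7 and 6 tested), as did 8.78% and 11.0% of all genes tested. *Hmox1*, which encodes the inducible haem oxygenase, fell from 69.2 ± 19.6 to 10.4 ± 4.70 in CD11b+ B cells (adjusted p = 0.00126 by limma) and 0.508 ± 0.368 in CD11b- B cells (8.17e-06). *Blvra*, which encodes biliverdin reductase, fell from 28.7 ± 7.38 to 12.3 ± 2.11 and 9.75 ± 2.34. *Flvcr1*, a haem exporter, was lost from the calls in 8 and 9 of 18 alternatives. None of the list was called between the B cell groups. *Hmox1*, named here after its values were seen, differed by 2.85 on the log2 scale between CD11b+ and CD11b- B cells (SE 0.38, adjusted p = 0.0726 by limma).

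**Figure D4:**
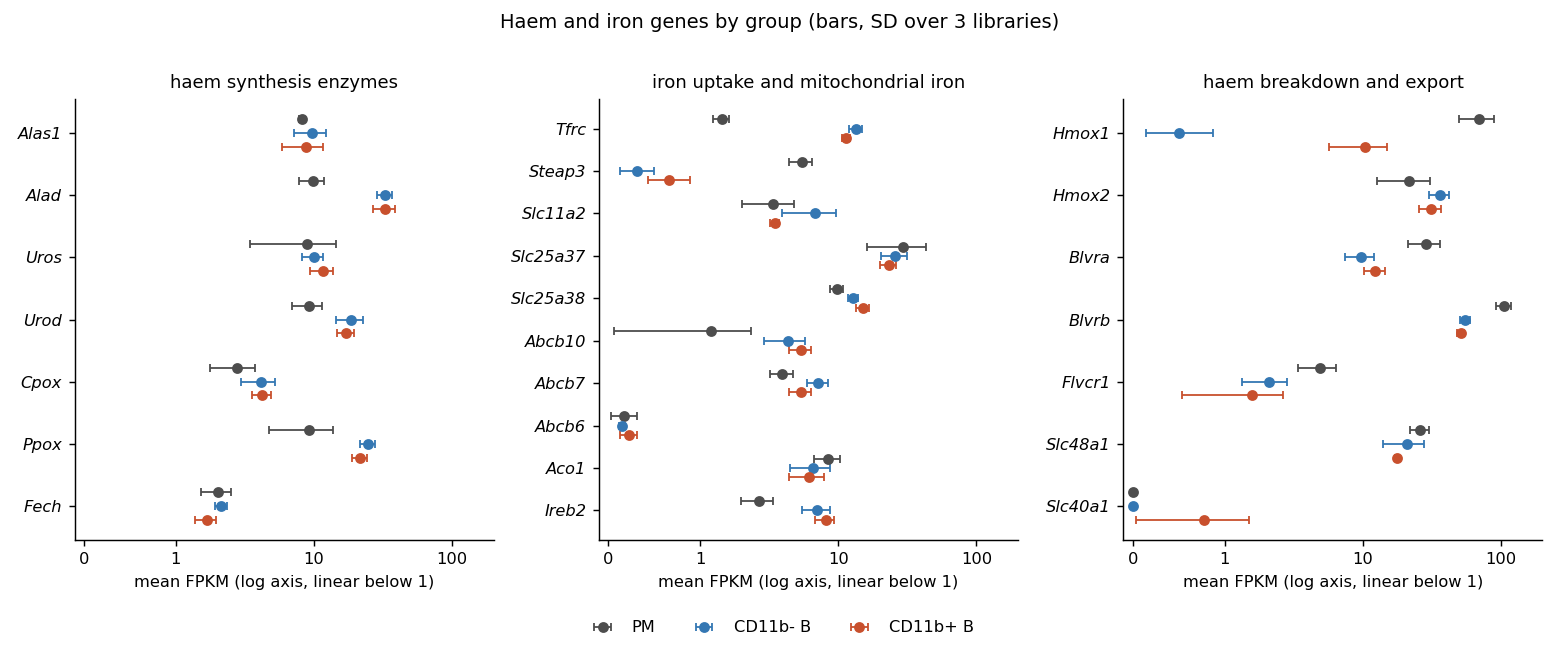
Mean FPKM (x axis, logarithmic above 1 and linear below) of genes of haem synthesis, of iron uptake and mitochondrial iron, and of haem breakdown and export in PMs, CD11b- B cells and CD11b+ B cells, with the SD over 3 libraries as a bar. *Alad* and *Tfrc* lie higher in both B cell groups than in PMs, and *Hmox1* and *Steap3* lie lower.

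The profile of the summed globins over the 9 libraries was compared with those of all genes whose mean FPKM was at least 1 (at least 0.05 for the single members below), as the root mean square difference of centred log2(FPKM + 1). The nearest were *Plk1* (0.58), which encodes a mitotic kinase, *Pclaf* (0.62), *Ccnb2* (0.64), a cyclin, *Top2a* (0.64), a DNA topoisomerase, and *Ube2c* (0.74), beside an SD of the globin profile itself of 2.36. The mean FPKM of *Plk1* was 29.6 in the CD11b+, 10.5 in the CD11b- and 0.382 in the PM libraries. The profile nearest to that of *Car2* was that of *Vamp1* (0.15), followed by *Cd1d2* (0.19) and *Gne* (0.20), each with its highest mean in CD11b- B cells. The profile of *Epor* was nearest to those of *Gm46411* (0.06), *Gm30984* (0.11) and *Tiaf2* (0.11), that of *Alas2* to *Gm15428* (0.07), *H2ac22* (0.07) and *Wdr90* (0.08), that of *Klf1* to *Gm29156* (0.08), *Gm10244* (0.09) and *Asap3* (0.09), and that of *Car1* to *H2-Q1*, *Gm4796* and *Gm14038* (each 0.04). These are descriptions over 9 libraries that share their 3 groups, and profiles of a few reads lie close to many others.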

How the data were processed

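Per the labels and the methods of the study, read pairs of SMART-seq HT libraries were trimmed, mapped to GRCm38 with STAR (2.7.2b) and counted on genes with featureCounts (1.6.1). The authors deposited FPKM for 55322 genes, in which each count is scaled by the exon length of the gene and the number of reads on genes. Their second deposited table holds a normalized signal (counts over size factors) for 11063 genes, 7 of the 9 members among them, and a p-value of 0.05 in its name. Columns with gene clusters in it were not used. Both tables gave whole reads for 100% of values above 0, within 0.05 of a read, and the same reads. The labels name both GRCm38 and GRCm39. Only 1462 of 52046 identifiers matched to GENCODE M21 had the same start there, so positions are those of GENCODE M21 on GRCm38, by identifier.

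The test was limma (3.58.1, two-sided, with a trend in eBayes) on log2(FPKM + 1) of the 6 libraries of a comparison, for genes whose mean FPKM over them was at least 0.05, with Benjamini-Hochberg adjustment over all genes tested and a threshold of 0.05. Sums were compared by exact permutation. On the whole reads, edgeR (4.0.16, quasi-likelihood) and DESeq2 (1.42.0, genes with at least 10 reads) were alternatives, beside pseudocounts of 0.1 and 0.01, other filters, all 9 libraries in one fit, replicate blocks, median-ratio and quantile scaling, eBayes without a trend, and each library left out in turn. The fits were first tested on simulated data with 200 changed genes, in which limma missed many of those with the smaller of both fold changes used, and edgeR and DESeq2 fewer. All members were described. Some genes of the lists are not reported here and entered no list count or sum. Of each gene list, up to 4 genes per comparison were named, those with the largest change among those called, or the 2 with the highest FPKM where none was called, and any further gene was named with its values known. The members and lists were chosen with earlier results of these data known, and the motif spellings were widened after a first search. Limits for counts of 0 (3 reads over the 3 libraries of a group) cover counting error only, since the libraries hold no molecular identifiers.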

Additional observations from a re-analysis of the deposited data

How the results depend on the processing

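Between CD11b+ and CD11b- B cells no member passed the threshold under any alternative. The number of all genes called there varied from the 15 of limma on log2(FPKM + 1): 37 and 25 with pseudocounts of 0.1 and 0.01, 2 with no filter, 31 with a minimum mean FPKM of 1, 36 with all 9 libraries in one fit, 9 with quantile normalization, 42 with edgeR, 38 with edgeR on DESeq2 size factors, 392 with DESeq2, and 3 to 40 with a library left out. A replicate block by the number in the title gave 16 genes, and one by the number in the description gave 0. By title number, the CD11b+ and CD11b- libraries 1, 2 and 3 had correlated deviations of 0.287, -0.0170 and 0.209. By description number only 2 pairs share a number, those of 0.287 and 0.209, and the libraries of the latter both hold B cell precursor genes. No label says what a number marks, and 2 pairs were too few to take the libraries as paired. Reversed values were those of *Klf1* (log2 fold change -0.029 with the replicate block by description number, and -0.11 to 0.24 with a library left out, below 0 without CD11b- replicate 1 or CD11b+ replicate 2), *Epor* (0.58 with a pseudocount of 0.01, 0.033 with that block) and *Car2* (-0.56 to 0.017 with a library left out, above 0 without CD11b- replicate 3), and none of these passed the threshold. The members called in CD11b- B cells against PMs numbered 2 with no filter, with median-ratio scaling and with quantile normalization, and 1 to 6 with a library left out, against 4. With the block by title number, the call of *Alas2* in CD11b+ B cells against PMs was lost (adjusted p = 0.0623) and *Hba-a2* in CD11b- B cells passed (adjusted p = 0.0481). The cause of these changes was not tested. In PMs the globin levels rest on 2 to 9 reads per library, which limits the precision of every fold against them.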
